A study of Homo sapiens with 6 samples.

Results

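The regions described here are the CTCF peaks of the large zinc-finger gene clusters of human chromosome 19, in HCT-116 cells, an established human colon cancer line. They are all peaks of the D3, E4 and WT lists whose midpoint lies on chromosome 19 between 19.8 and 24.6 Mb (the 19p12 window) or between 52.3 and 58.6 Mb (the 19q13.4 window) of hg19. The windows held 364 of the 136014 peaks of the series, namely 160 in D3, 95 in E4 and 109 in WT. Merging overlapping peaks of the 3 lists gave 165 regions of 60235, of which 25 lay at 19p12 and 140 at 19q13.4. The rest of chromosome 19, with 1853 regions, served as the control.

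D3 and E4 are a pair of clones for which the labels give a CTCF mutation as genotype, and WT is the same cell line with the label wild type. Each clone descends from 1 cell, and the labels do not say where the mutation lies. The title of the series concerns a distal CTCF binding site and MYC. The cells were untreated and grown in serum-containing McCoy's medium. CTCF-bound chromatin was purified with an antibody and sequenced, with 1 library per population, so that no difference between D3, E4 and WT has a replicate check and no p-value is given. The complete list of D3 had 57935 peaks, that of E4 39434 and that of WT 38645. Read numbers were not in the files used here, so the depth behind these lists is unknown.

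CTCF is a DNA-binding protein with many zinc fingers that marks boundaries between chromatin domains and anchors loops together with cohesin. Many genes of the windows are KRAB zinc-finger genes, a family that grew by tandem duplication. Their products also bind DNA through zinc fingers, and their KRAB domain recruits the corepressor TRIM28, through which many of them silence transposable elements. Chromatin over the gene bodies of this family is known to carry the repressive mark H3K9me3 in many cell types.

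The label of the windows was checked against the order of genes in the RefSeq table. Between ZNF253 and ZNF254, which flank most of the 19p12 window, 34 of 36 protein-coding genes had a zinc-finger symbol (94.4%). The 19q13.4 window was less uniform. Its first block, before 54 Mb, had 36 such genes of 43 from ZNF649 to ZNF765. The middle block, from 54 to 56 Mb, had 1 of 66 from ZNF331 to IL11, and is made of NLRP genes, leukocyte receptor genes and others. The last block had 52 of 74 from U2AF2 to ZNF135. These stretches leave out the genes between ZNF765 and ZNF331 and between IL11 and U2AF2, so they do not fill the blocks. In the remainder of the chromosome the share was 134 of 1210 (11.1%). Over the stretch counted, the middle block is therefore a zinc-finger cluster by position only, and the blocks are described separately where they differ.

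Sequence is shown for a few promoters because the start of a gene is where a CTCF peak can be tied to a single member of these families. The motif searched was a loose form of the CTCF core, namely CC, then 3 free bases, AGG, 1 free base and GGC, on both strands of the RefSeq promoters (300 bases around the start of a transcript, mostly before it, GRCh38.p14). It overlaps no other motif searched. It occurred in 0 of 28 promoters of 19p12 zinc-finger genes and in 2 of 103 promoters of 19q13.4 zinc-finger genes (1.94%). It occurred in 7 of 111 promoters of the other 19q13.4 genes (6.31%), in 80 of 1304 in the remainder of the chromosome (6.13%) and in 1631 of 35116 promoters of all chromosomes (4.64%). ZNF256 and ZNF419 hold the motif, in capitals. The other 3 are the zinc-finger promoters of the gene list with a peak at the start of the gene, and none of them holds the motif. They lie at chr19:57947657-57947956 (minus strand, ZNF256), chr19:57487500-57487799 (plus strand, ZNF419), chr19:53394899-53395198 (plus strand, ZNF765), chr19:57191250-57191549 (plus strand, ZNF264) and chr19:20077750-20078049 (plus strand, ZNF90) of GRCh38.p14, a build that cannot be set beside the hg19 coordinates of the peaks.
ZNF256: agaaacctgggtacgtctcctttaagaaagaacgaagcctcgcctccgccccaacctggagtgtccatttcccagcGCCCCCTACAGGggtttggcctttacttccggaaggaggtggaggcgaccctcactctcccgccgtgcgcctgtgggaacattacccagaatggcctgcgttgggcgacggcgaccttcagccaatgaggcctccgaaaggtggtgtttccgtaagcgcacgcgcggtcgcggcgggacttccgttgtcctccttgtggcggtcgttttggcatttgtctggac
ZNF419: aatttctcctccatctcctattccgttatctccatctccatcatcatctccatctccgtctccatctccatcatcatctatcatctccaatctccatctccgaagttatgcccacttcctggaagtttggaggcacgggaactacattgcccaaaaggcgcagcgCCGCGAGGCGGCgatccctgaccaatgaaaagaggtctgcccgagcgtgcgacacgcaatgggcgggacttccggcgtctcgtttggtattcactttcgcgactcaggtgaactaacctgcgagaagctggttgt
ZNF765: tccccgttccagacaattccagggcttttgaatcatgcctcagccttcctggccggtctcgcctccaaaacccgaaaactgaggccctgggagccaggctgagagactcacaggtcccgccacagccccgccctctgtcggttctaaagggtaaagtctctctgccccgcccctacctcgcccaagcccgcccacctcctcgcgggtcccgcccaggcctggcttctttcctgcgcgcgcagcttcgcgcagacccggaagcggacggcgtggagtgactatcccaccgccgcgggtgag
ZNF264: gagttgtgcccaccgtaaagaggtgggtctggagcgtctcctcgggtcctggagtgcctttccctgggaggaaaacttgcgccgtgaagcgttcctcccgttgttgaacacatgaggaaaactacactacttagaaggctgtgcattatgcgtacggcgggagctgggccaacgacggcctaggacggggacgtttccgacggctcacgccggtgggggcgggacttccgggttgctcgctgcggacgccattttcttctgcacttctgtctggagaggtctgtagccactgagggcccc
ZNF90: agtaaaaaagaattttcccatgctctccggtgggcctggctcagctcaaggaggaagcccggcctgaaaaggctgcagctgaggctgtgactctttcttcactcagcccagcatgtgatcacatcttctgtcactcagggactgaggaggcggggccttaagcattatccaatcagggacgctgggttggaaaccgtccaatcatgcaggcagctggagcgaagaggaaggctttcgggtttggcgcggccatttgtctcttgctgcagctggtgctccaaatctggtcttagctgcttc
A match describes these letters and is not a binding site. The absence of one says nothing of the factor.

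The first comparison asked how many CTCF peaks the clusters hold beside the rest of the chromosome. The 19p12 window was sparse in CTCF peaks. D3 had 23 peaks there, E4 had 6 and WT 9, or 4.79, 1.25 and 1.87 peaks per Mb. The rest of chromosome 19 held 40.7 peaks per Mb in D3, 29.7 in E4 and 30.8 in WT. The density of the rest was thus 8.49 times that of the window in D3, 23.8 times in E4 and 16.4 times in WT. The window makes up 8.69% of the measured length of the chromosome and held 1.18% of its peaks in D3 (exact 95% interval 0.746 to 1.76), 0.427% in E4 (0.157 to 0.927) and 0.613% in WT (0.281 to 1.16). These intervals cover counting error only. All 3 libraries gave the same order, with the window far below the rest. Genes of these clusters are similar in sequence, and how reads with several mapping positions were handled is not given in the sources used here. Its part in the low numbers and in missing peaks was not tested.

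The 19q13.4 window lay between these extremes. D3 had 137 peaks, E4 had 89 and WT 100, which is 21.7, 14.1 and 15.9 per Mb. The rest of the chromosome was 1.87 times as dense in D3, 2.10 times in E4 and 1.94 times in WT. The peaks were 7% of those of the chromosome in D3 (5.91 to 8.22), 6.33% in E4 (5.11 to 7.73) and 6.81% in WT (5.57 to 8.22), on 11.4% of its length. Chromosome 19 is dense in CTCF peaks, and against all other chromosomes the comparison came out otherwise for this window. Their density over the 3 lists together was 0.846 times that of the 19q13.4 window, and 5.53 times that of the 19p12 window. The length of those chromosomes keeps their empty stretches, centromeres included, while the rest of chromosome 19 leaves out its longest one. Their density is therefore taken lower than by the measure used for chromosome 19.

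Within this window the blocks differed in density. The first block, of zinc-finger genes, had 10.6 regions per Mb (18 regions). The middle block had 33.5 (67 regions), and the last block, mostly of zinc-finger genes, had 21.2 (55 regions). The rest of the chromosome had 42.0. Counting the regions called in all 3 lists, the first block had 2.94 per Mb, the middle block 23.0, the last block 11.5 and the rest 26.6. At 19p12 the number was 0.909 per Mb before 22 Mb (2 regions) and 0.385 after it (1 region). Other zinc-finger clusters exist in the rest of the chromosome, on both arms. Over 3 of these, placed from general knowledge of hg19, there were 13.8 regions per Mb and 5.95 called in all 3 lists, against 44.5 and 28.5 in the rest without them. Each of these segments had fewer regions per Mb than the rest, and the middle block, with 1 zinc-finger gene in its RefSeq stretch, was the closest to it.

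**Figure D1:**
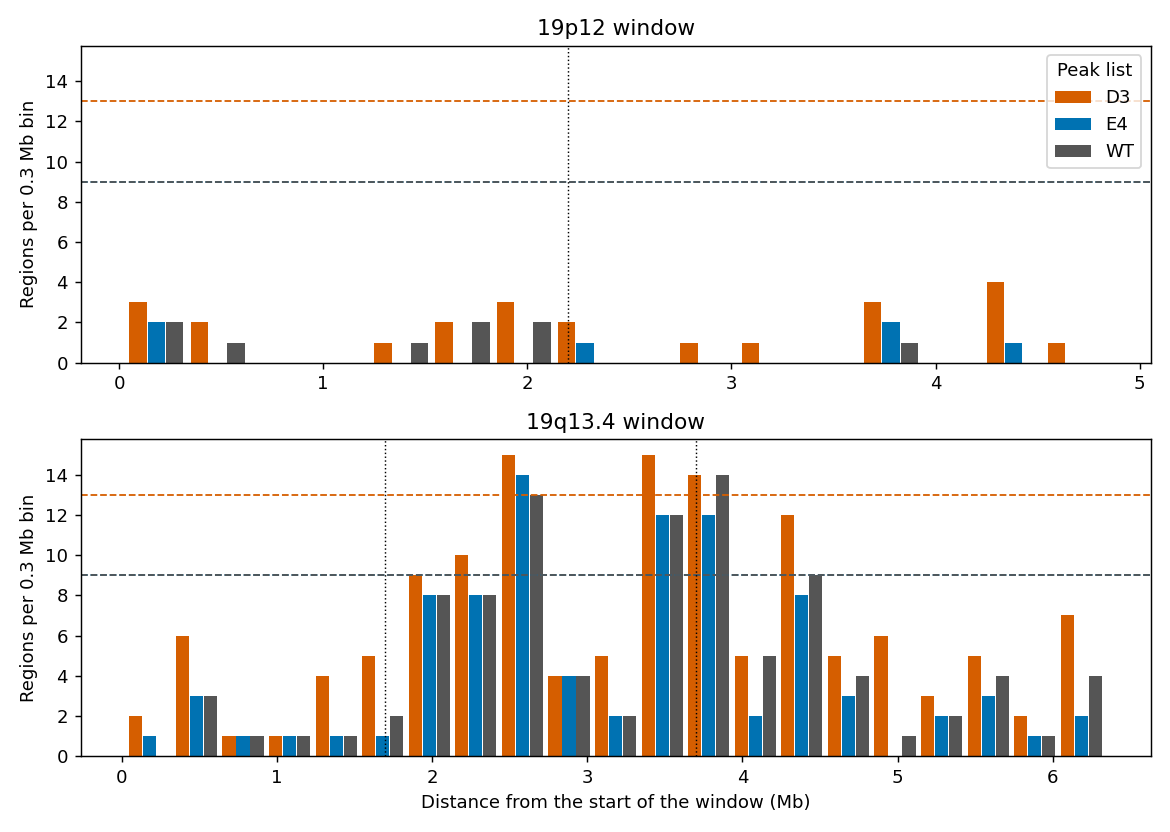
Number of CTCF regions with a D3, E4 or WT peak in consecutive bins of 0.3 Mb (vertical axis) against the distance from the start of the 19p12 or 19q13.4 window in Mb (horizontal axis). Dashed lines are the medians of the bins in the rest of chromosome 19 (13 regions in D3, 9 in E4 and 9 in WT, so that the lines of E4 and WT coincide), and dotted lines are the block edges. The 19p12 bins stay at 4 or fewer, and the 19q13.4 bins reach the dashed lines mainly in the middle block.

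Counted in bins of 0.3 Mb, the 19p12 window had between 0 and 4 regions per bin, with a median of 1 and 5 of 16 bins empty. The 19q13.4 window had between 1 and 15, with a median of 5 over 21 bins. In the rest of the chromosome the median was 13 over 146 bins, 4 bins were empty (2.74%) and 22 (15.1%) had 4 or fewer regions. No region called in all 3 lists occurred in 14 of 16 bins at 19p12, in 4 of 21 at 19q13.4 and in 13 of 146 in the rest. The fullest bins of the 19p12 window were those from 21.6 and from 24 Mb, with 4 regions each, followed by those from 19.8, 20.1 and 23.4 Mb with 3 each. At 19q13.4 the bins from 54.7, 55.6 and 55.9 Mb had 15 regions each. Sparse stretches are also found elsewhere in the genome. Among 599 tiles of 4.8 Mb over all chromosomes that held any region, 22 had fewer regions than the 25 of the 19p12 window, and the median tile had 90. By regions called in all 3 lists, 8 tiles had fewer than 3, and the median was 48.

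The distance between neighbouring regions had a median of 160 kb at 19p12, 21.5 kb at 19q13.4 and 12.6 kb in the rest. At 19p12, 14 of 24 distances were over 100 kb, against 16 of 139 at 19q13.4 and 43 of 1850 in the rest. The longest stretches without a peak of any list at 19p12 were chr19:20358295-21190674 (832 kb), which contains ZNF737, ZNF626 and ZNF85, chr19:22073284-22728553 (655 kb), which contains ZNF208, ZNF257, ZNF676, ZNF729 and ZNF98, and chr19:23065895-23466551 (401 kb). Outside the centromere the longest such stretch in the rest was 618 kb. At 19q13.4 the longest were chr19:53238626-53580304 (342 kb), chr19:52313707-52641913 (328 kb) and chr19:52968668-53237989 (269 kb), all in the first block.

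Strength was compared within each list, by the percentile of the authors' −log10 q, since values of different lists are not comparable. The peaks of 19p12 were weak. Their median percentile was 31.5 in D3 (interval of the median from order statistics 21.2 to 44.9), 12.6 in E4 (0.936 to 29.2) and 21.9 in WT (2.27 to 60.9). In the rest of the chromosome the medians were 64.0, 68.9 and 67.0. At 19q13.4 they were 58.1, 57.4 and 52.2, and by block the regions of the first block stood at 29.4 in D3, 19.2 in E4 and 21.4 in WT, those of the middle block at 60.4, 59.5 and 63.0, and those of the last at 55.1, 57.2 and 43.8. A −log10 q of 5 or more was reached at 19p12 by 11 of 23 D3 peaks, 0 of 6 E4 peaks and 3 of 9 WT peaks. With 0 of 6, a share of up to 45.9% remains possible. In the rest of the chromosome these shares were 73.4%, 79.0% and 66.4%.

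Peaks of the 19p12 window were also narrower than those of the rest in D3 and E4, while the interval of the 9 WT peaks spans the median of the rest. Median widths were 573 bp in D3 (411 to 865), 450 bp in E4 (351 to 724) and 501 bp in WT (335 to 1161), against 1017, 863 and 752 bp in the rest. With the window narrowed by 0.5 Mb on each side the WT median was 886 bp, above the 752 bp of the rest. Over the 3 stronger WT peaks of the window, those at or past 5 in −log10 q, it was 1034 bp. At 19q13.4 the medians were 843 bp in D3 (791 to 1015), 827 bp in E4 (724 to 915) and 720 bp in WT (577 to 831). No 19p12 peak was wider than 2 kb, while 9 of 137 D3 peaks, 3 of 89 E4 peaks and 0 of 100 WT peaks at 19q13.4 were, and 147 of 1797, 71 of 1311 and 52 of 1360 in the rest. The 19p12 peaks also had the lowest median strength of the 3 areas in each list, and the part of strength in their width was not tested. In the 81 regions of 19q13.4 called in all 3 lists the strongest D3 peak was wider than that of WT in 70 regions, with a median ratio of 1.47, and that of E4 in 50, with a median ratio of 1.16. In the 1174 such regions of the rest the ratios were 1.49 and 1.13, so the wider D3 peaks were found in both places.

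**Figure D2:**
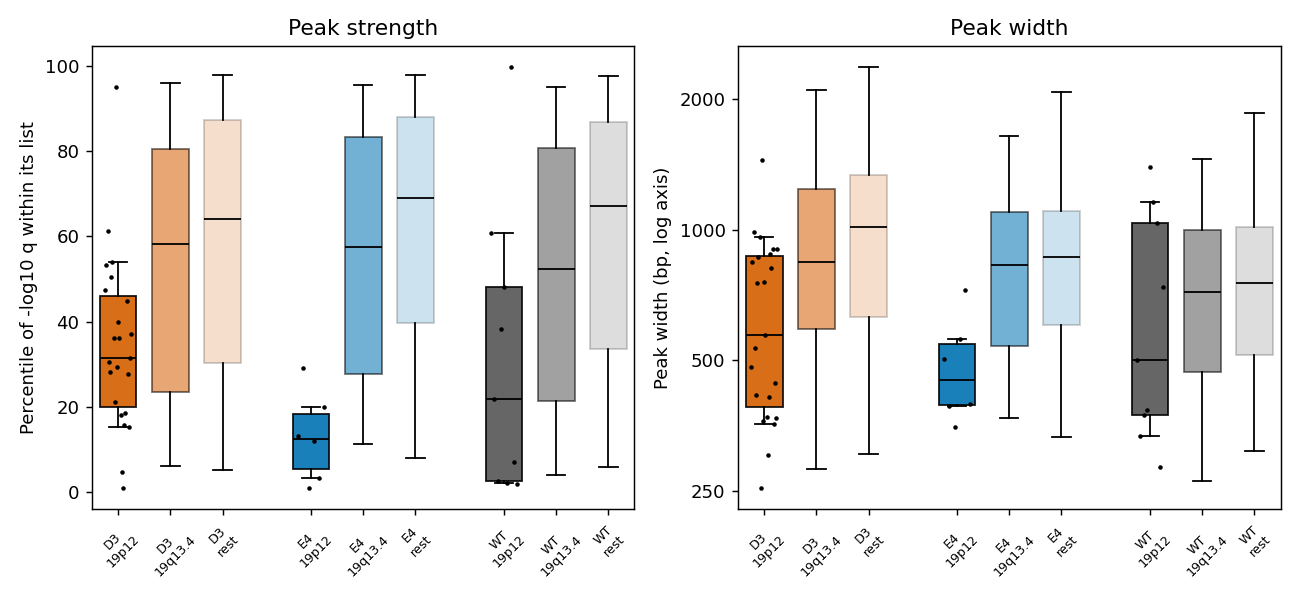
Strength (left, percentile of −log10 q within the list of the peak) and width (right, bp on a log axis) of the D3, E4 and WT peaks at 19p12, at 19q13.4 and in the rest of chromosome 19. Boxes are quartiles with the median, whiskers run from percentile 5 to percentile 95, and points are the single 19p12 peaks. The 19p12 medians are the lowest of each list on both axes (31.5, 12.6 and 21.9 percentile points, 573, 450 and 501 bp).

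The next comparison asked which lists called the same regions. At 19p12, 3 of 25 regions were called in all 3 lists, or 12% (2.55 to 31.2). The share was 5.88% with the narrowed window and 4% where an overlap had to cover 50%. It was 57.9% at 19q13.4 (81 regions), 63.4% in the rest (1174) and 53.9% over all chromosomes. A further 13 regions at 19p12 (52.0%) were called in D3 only, a pattern that made up 26.1% of all regions of the genome. Another 4 were called in D3 and WT (16.0%, against 6.62% over the genome), 3 in D3 and E4 (12%, against 9.31%), 2 in WT only (8.00%, against 2.37%) and none in E4 only (1.45% over the genome) or in E4 and WT (0.216%). At 19q13.4, D3 alone called 33 regions (23.6%), D3 and WT 15 (10.7%), D3 and E4 7 (5%), WT alone 3 (2.14%) and E4 alone 1 (0.714%). In the rest the same patterns made up 21.6%, 6.10%, 5.50%, 2.10% and 1.24%. Of these 5 patterns, D3 and WT without E4 differed most in share between window and rest, with intervals of 6.12 to 17.1 and 5.05 to 7.29 that overlap.

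The blocks differed here as well. All 3 lists called 5 of 18 regions in the first block (27.8%, interval 9.69 to 53.5), 46 of 67 in the middle block (68.7%, 56.2 to 79.4) and 30 of 55 in the last (54.5%, 40.6 to 68.0). The smaller clusters elsewhere on the chromosome had 22 of 51 (43.1%, 29.3 to 57.8). The last block held no region of E4 without D3 and WT, and its 10 regions of D3 and WT made up 18.2% of its regions (9.08 to 30.9). The same pattern made up 16.7% in the first block, 2.99% in the middle block and 15.7% in the smaller clusters. It was 30.8% at 19p12 before 22 Mb (4 of 13 regions) and 6.1% in the rest.

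**Figure D3:**
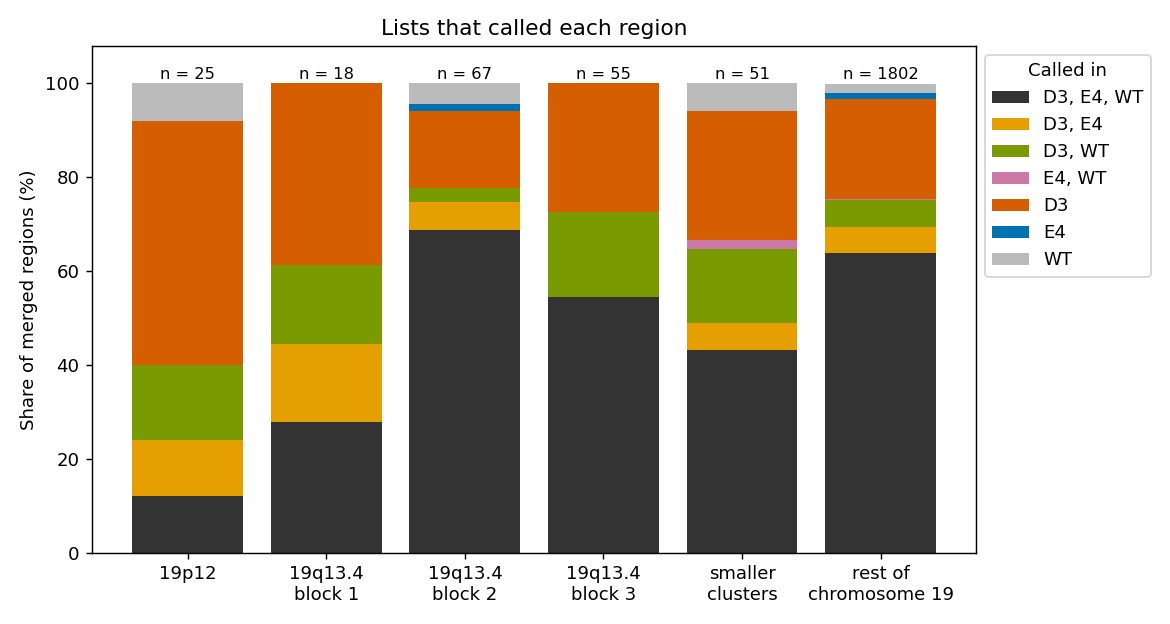
Share of merged regions (vertical axis, %) by the lists that called them, for the 19p12 window, the 3 blocks of the 19q13.4 window, the smaller zinc-finger clusters and the rest of chromosome 19 without these. The number of regions stands above each bar. The dark part, called in D3, E4 and WT, is 12% at 19p12 and 68.7% in the middle block.

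Of the WT peaks of the 19p12 window, D3 had 7 of 9 (77.8%, interval 40.0 to 97.2) and E4 had 3 of 9 (33.3%, 7.49 to 70.1). In the rest of the chromosome D3 had 96.9% and E4 88.5%. Over the genome 4.05% of WT peaks had no D3 peak and 14.3% no E4 peak, and 3.69% had neither. At 19p12 the missing peaks were 2 for D3, 6 for E4 and 2 for both clones. Where an overlap had to cover 50%, D3 kept 44.4% and 44.4% were missing from both clones, and with the narrowed window E4 kept 16.7%. At 19q13.4 D3 had 97 of 100 WT peaks (91.5 to 99.4) and E4 82 (73.1 to 89.0), and 3 were missing from both. The D3 list is the longest, and at equal list length D3 kept 66.7% and E4 33.3% at 19p12. At 19q13.4 the shares were then 86% and 82%, with 9% missing from both, so the clones were closer together. In the full lists, weak peaks were the ones missing from 19q13.4. Of the 54 WT peaks there with a −log10 q of 5 or more, D3 and E4 each had all 54, and of the 46 weaker ones D3 had 43 and E4 28. In the rest D3 had 415 and E4 315 of 457 weaker WT peaks, or 90.8% and 68.9%. Of the 903 stronger WT peaks of the rest, D3 had 100% and E4 98.3%. Over the whole WT list D3 had 99.9% and E4 98.1% of the stronger peaks, and 91.4% and 71.8% of the weaker ones. The loss of weak peaks is therefore not particular to the window.

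Seen from the clones, 16 of 23 D3 peaks at 19p12 had no WT peak (69.6%) and 3 of 6 E4 peaks had none. Over the genome these shares were 36.9% for D3 and 16.6% for E4. At 19q13.4, 40 of 137 D3 peaks (29.2%) and 8 of 89 E4 peaks (8.99%) had no WT peak, and in the rest 28.1% and 9.61%. The list of D3 is the longest, and at an equal length of 38645 peaks per list D3 had 11 peaks at 19p12, E4 had 5 and WT 9, and at 19q13.4 they had 93, 89 and 100. At that length the numbers of D3, E4 and WT were closer together in both windows.

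The members of the 19p12 window can be named one by one. The region of highest rank was chr19:21665602-21667048, between ZNF493 and ZNF429. It had a −log10 q of 39.2 and a fold of 7.56 in D3, no peak in E4, and a −log10 q of 35.0 and a fold of 5.54 in WT. This is percentile 95.1 of the D3 list and 99.7 of the WT list. The nearest E4 peak lay 406 kb away. Of the 5519 WT peaks without an E4 peak it had the highest −log10 q, and the next had 13.0. Among the 19719 D3 peaks without an E4 peak it ranked 3. Its fold was low for that −log10 q. Of the 2865 D3 peaks and the 119 WT peaks at least as strong by −log10 q, no other had a fold as low, and their median fold was 17.7 in D3 and 16.9 in WT. The region thus combined a high −log10 q with a middling fold, at percentile 61.4 of D3 and 55.5 of WT.

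**Figure D4:**
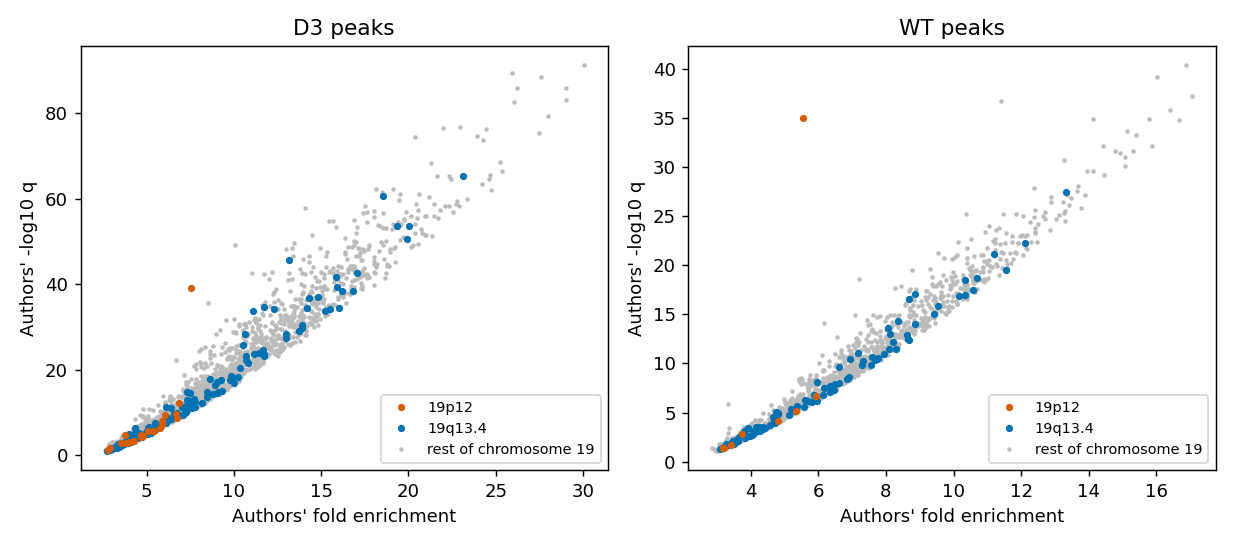
The authors' −log10 q (vertical axis) against the authors' fold enrichment (horizontal axis) for the D3 peaks (left) and the WT peaks (right) on chromosome 19. Points are single peaks of the 19p12 window, the 19q13.4 window and the rest of the chromosome. The 19p12 point that lies off the trend of the other points, at a low fold, is the region with a −log10 q of 39.2 in D3 and 35.0 in WT.

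The 3 regions of 19p12 called in all lists were modest. The first, chr19:20040998-20041837, lay in the window of ZNF93, whose product is known to repress LINE-1 elements. It stood at percentile 53.3 of D3, 13.2 of E4 and 60.9 of WT. The second, chr19:20069541-20070526, between ZNF93 and ZNF682, stood at 61.2, 29.2 and 21.9. The third, chr19:23466552-23467583, lay at the foot of each list, at 0.917, 12 and 2.05. ZNF91, which represses SVA elements, had no peak of any list within 10 kb.

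Regions of D3 and WT without E4 at 19p12 were, after the one described, chr19:21385473-21387118, chr19:21190675-21191426 and chr19:21438519-21440299. Their percentiles were 53.9, 50.6 and 36.3 in D3 and 48.0, 38.2 and 2.27 in WT. All 4 regions of this pattern lay before 22 Mb, where E4 had 2 of 8 WT regions (3.19% to 65.1%) and D3 had 6. Regions of both clones without WT were chr19:24216330-24216807, at the beginning of the window of ZNF254, chr19:22072711-22073283 and chr19:23623078-23623893. Their percentiles were 31.5, 36.1 and 18.7 in D3 and 20.1, 0.936 and 3.43 in E4. The regions of WT only were chr19:20188655-20189027, at the start of ZNF90, and chr19:21711368-21711650, in ZNF429, at percentiles 2.54 and 7.13 of the WT list. The strongest of the 13 D3-only regions was chr19:19843344-19843824, at percentile 47.3 of D3, and the 5 strongest ranged from 30.5 to 47.3. The widest regions of the window were chr19:21438519-21440299 (1781 bp), chr19:21385473-21387118 (1646 bp) and chr19:21665602-21667048 (1447 bp).

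At 19q13.4 the 5 strongest regions called in all lists lay in the middle block or just past it. The first, chr19:55671410-55672552, was near TNNI3, the gene of cardiac troponin I, at percentile 99.4 of D3, 98.7 of E4 and 93.7 of WT. The second, chr19:54734997-54736537, near RPS9, a ribosomal protein gene, stood at 97.0, 98.8 and 95.3. The third, chr19:56164476-56165880, near U2AF2, which encodes a splicing factor, stood at 98.4, 95.5 and 97.0. These were followed by chr19:55978620-55980041 (98.4, 97.3 and 93.1) and chr19:56027874-56028971 (96.2, 97.5 and 92.1). None of the 5 was near a zinc-finger gene of the gene list. That list holds only 32 zinc-finger genes at 19q13.4, where RefSeq has 98, and unlisted ones may lie closer. The widest merged region was chr19:54833667-54837758 with 4092 bp, where the strongest peak was 1880 bp wide in D3, 3926 bp in E4 and 1516 bp in WT. The next widest were chr19:55609949-55612349 (2401 bp) and chr19:55392401-55394788 (2388 bp).

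Regions present in some lists only were weaker. The strongest of D3 and E4 without WT was chr19:54941037-54942564, at percentile 33.5 of D3 and 59.7 of E4. It was followed by chr19:53698247-53699373 near ZNF665, at 68.1 and 14.1, and by chr19:53897740-53898494 at the start of ZNF765, at 32.8 and 49.1. The next were chr19:55687173-55687631, at 34.3 and 11.7, and chr19:55609949-55612349 in PPP1R12C, at 13.5 and 11.9. PPP1R12C encodes a phosphatase subunit and is the gene that hosts the AAVS1 safe-harbour site. Its peak of this region was 2401 bp wide in D3 and 367 bp in E4.

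The 5 strongest regions of D3 and WT without E4 all lay in the last block, from chr19:56288795-56289453 to chr19:56859465-56860229. Their percentiles ranged from 55.1 to 65.3 in D3 and from 9.76 to 43.4 in WT. Regions of WT only were chr19:55941134-55941388, chr19:54283062-54283313 and chr19:54675774-54676656, at percentiles 20.6, 19 and 1.03 of WT. The single region of E4 only was chr19:54676704-54677720, at percentile 2.69 of E4 and next to the last of these. The strongest of the 33 D3-only regions was chr19:56719001-56719422, at percentile 52.0 of D3, and the 5 strongest ranged from 29.1 to 52.0.

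In the last block D3 had a peak in all 40 regions with a WT peak, and E4 in 30 (75%, 58.8 to 87.3). In the middle block the numbers were 48 and 46 of 51, and in the first block 8 and 5 of 8. Over the rest of the chromosome E4 had 88.6% of such regions (86.7 to 90.2) and D3 96.9%. The 10 WT regions without E4 in the last block had a −log10 q of 1.8 to 4.63, so no region of 5 or more was among them. Such regions were few elsewhere too, with 14 of 152 WT regions without E4 in the rest and 390 of 5415 over all chromosomes. At equal list length D3 had 35 peaks in the block, E4 30 and WT 40. In the rest of the chromosome both clones were also below WT at that length, with 1311, 1298 and 1360.

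Regions called in all 3 lists were also ranked among themselves by −log10 q, which gives lists of equal length. At 19q13.4 the median difference in rank was 1.25 percentile points for D3 minus WT (−2.77 to 2.79) and 0.505 for E4 minus WT (−5.70 to 4.37) over 81 regions. Ranked by fold, the E4 difference turned to −1.61 (−7.21 to 5.39) and that of D3 was 0.785. In the rest, by −log10 q, it was −0.659 and 0.225. In the last block E4 ranked lower than WT in 19 of 30 regions, with a median difference of −9.33 points whose interval, −16.4 to 4.42, includes 0. For D3 this block gave 0.0846 (−6.89 to 3.41). In the middle block the differences were 1.86 for D3 and 1.75 for E4, over 46 regions. In the middle and last blocks every interval includes 0. The first block, with 5 regions, was too small for an interval and gave −0.351 for D3 and 1.13 for E4.

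**Figure D5:**
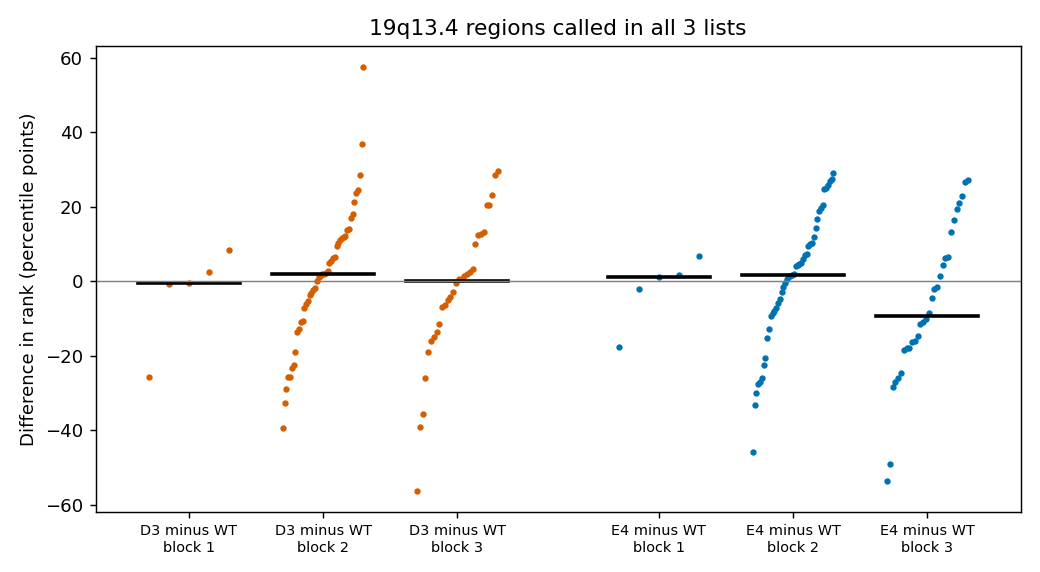
Difference in rank (percentile points, clone minus WT; vertical axis) of the 19q13.4 regions called in D3, E4 and WT, for D3 and E4 in each block (horizontal axis). Points are single regions in order of their value, and bars are medians. Blocks 1 to 3 are the first, middle and last. The bar of E4 in block 3 is at −9.33, and the others lie between −0.351 and 1.86.

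A list of 76 gene windows, each with 10 kb on either side, gave the view by gene. It was written from general knowledge and covers only a part of the genes. At 19p12 it holds 27 zinc-finger genes, where RefSeq has 34 between ZNF253 and ZNF254. At 19q13.4 it holds 32, where RefSeq has 98 from ZNF649 to ZNF135. Of the 59 listed zinc-finger genes, D3 had a peak at 15 (25.4%), E4 at 7 (11.9%) and WT at 7 (11.9%), while 42 had none in any peak list. Of the 17 other listed genes, all of them at 19q13.4, D3 had a peak at 12 (70.6%), E4 at 10 (58.8%) and WT at 10 (58.8%), while 5 had none. No such share was taken over all genes of the windows or of the rest of the chromosome, so these shares describe the listed genes only. At 19p12, 22 of 27 zinc-finger genes had none, and at 19q13.4 20 of 32. Genes with a peak of each of the 3 lists, not always in the same region, were 10 of the 17 others and 4 of the 32 zinc-finger genes at 19q13.4. At 19p12 there was 1 of the 27, which was ZNF93.

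The windows with most peaks belonged mainly to other genes. TNNI3 had 4 in each list. TNNT1, the gene of slow skeletal troponin T, had 3 in each. U2AF2 had 3 in D3, 2 in E4 and 3 in WT. NLRP12, PPP1R12C, PTPRH and the zinc-finger gene ZNF787 had 3 in D3, 2 in E4 and 2 in WT. Several of these windows overlap: the troponin genes are neighbours and share peaks.

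Among the listed zinc-finger genes of 19q13.4, those with peaks of D3, E4 and WT were ZNF665, ZNF787, ZNF17 and ZSCAN4. The last is a gene known from the early embryo. At ZNF665 no region was called in all 3 lists. D3 and WT shared chr19:53688281-53689069, at percentile 16 of WT, and D3 and E4 shared chr19:53698247-53699373, at percentile 14.1 of E4. The best peak of each list at ZNF787 stood at percentile 72 in D3, 79.1 in E4 and 85.9 in WT, but these lay in different regions. That of D3 was in chr19:56587406-56588827. Those of E4 and WT were in chr19:56590871-56593236, where D3 stood at 68.1. The region near ZSCAN4 stood at 59.2, 54.3 and 26.5 in D3, E4 and WT, and that near ZNF17 at 59.0, 27.6 and 2.35. ZNF765 and ZNF254 had a peak in both clones and none in WT. ZNF90 and ZNF429 had one in WT and none in the clones. The listed genes with peaks in D3 only were ZNF682, ZNF610, ZNF160, ZNF331, ZNF582, PEG3, ZNF264, ZNF606, PRPF31 and CNOT3. ZNF331 and PEG3 are imprinted genes, and their single D3 peaks stood at percentiles 22.8 and 4 of the list. The best peaks of the D3-only genes stood at percentile 47.1 or lower, the highest being that of CNOT3, with a −log10 q of 7.91. Over the whole D3 list, 12785 of the 15717 peaks with no peak in the other lists had a −log10 q under 5. Low strength is therefore not particular to the D3-only peaks of these genes.

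The start of the gene could be placed for 50 of the 76 genes. Among 39 zinc-finger genes a peak within 1 kb of it was found in 2 for D3, 1 for E4 and 1 for WT, and in none for all 3 lists. These were ZNF765 (D3 and E4), ZNF264 (D3) and ZNF90 (WT), the genes whose promoters are printed with no match to the motif. Among 11 other genes there was 1 for D3, CNOT3, and none for E4 or WT. The share of gene starts with a peak was not taken over all genes or over the rest of the chromosome. These counts therefore describe the listed genes only and show no trait of zinc-finger genes.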

How the data were processed

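CTCF ChIP-seq peaks of HCT-116 cells were analysed for D3, E4 and WT, 1 library each, and the 3 libraries made with no antibody were not used here. Per the submitters' processing notes, CASAVA 1.8.2, Picard 2.23.1, bedtools 2.29.2, MACS2 2.2.7.1 and hg19 were used. The aligner, the call settings and the treatment of reads with several mapping positions are not given in the sources used here. Per library, the authors deposited 1 broad peak list. Per peak, the authors deposited a fold enrichment (a ratio), a −log10 p and a −log10 q, and a score derived by the caller. The depth is unknown.

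Lists were compared in Python 3.11.15 (pandas 2.3.3, numpy 2.4.6, scipy 1.17.1, matplotlib 3.10.9). Peaks belonged to a window by their midpoint. Peaks overlapping by at least 1 bp counted as shared, and such peaks, of whichever list, were joined into 1 region. Strength was the percentile within a list. Intervals are exact Clopper-Pearson (shares) or order-statistic (medians) 95% intervals and cover counting error only. The length of the rest, 44.2 Mb, leaves out its longest empty stretch of 3.66 Mb, which holds the centromere. Gene windows, blocks and smaller clusters came from general knowledge of hg19, and all 75 pairs of neighbouring genes had the same order in RefSeq. Named regions were the 5 strongest of each presence pattern, the 3 widest, the 3 longest empty stretches and the 3 fullest bins. Named genes were those with most peaks, those with peaks in some lists only, and ZNF91, ZNF93, ZNF331, PEG3 and PPP1R12C. One gene that this rule names is not reported here. The overlap and merging steps were tested on simulated data. The members and lists were chosen with earlier results of these data known. The alternatives tried were equal list length, a floor of 5 on −log10 q, other overlap rules, narrower windows, fold in place of q and other controls.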

Additional observations from a re-analysis of the deposited data

Results flagged for a closer look

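At an equal length of 38645 peaks per list, D3 had 11 peaks in the 19p12 window, E4 had 5 and WT 9. D3 was 2 above WT and E4 was 4 below it, so over the whole window one clone was above WT and the other below it, with a difference of 6 peaks between D3 and E4. Within each of its blocks both were on the same side of WT. Before 22 Mb D3 had 7 and E4 had 2, against 8 in WT, and after it D3 had 4 and E4 had 3, against 1 in WT. With 1 library per population this difference was not tested. At 19q13.4 both clones were below WT, at 93 peaks for D3 and 89 for E4, against 100 for WT. The rest of the chromosome had the same order, with 1311 for D3, 1298 for E4 and 1360 for WT, so this order is not particular to the window.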

How the results depend on the processing

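Of 112 alternative values for 36 results, 87 stayed within the interval of the value reported or the count limit of 1.5 times and 21 moved further. In all, 6 changed sign, namely 4 differences from a control and 2 rank differences that stayed within their interval or, with 3 regions, their range; where no reason is given, the cause was not tested. With a −log10 q of 5 or more, which leaves fewer peaks, the 3 lists together held 14 peaks at 19p12 and 212 at 19q13.4. At 19p12 this left no E4 peak and 3 WT peaks, so the shares kept by E4, called in all lists and called in both clones without WT were 0 by construction and compare nothing. D3 kept 100% of those 3, so 0 were missing from both clones, and 1 of the 3 overlapped a weaker E4 peak. At 19q13.4 E4 kept 92.6%, the share of both clones without WT was 14.7%, and the median WT width there was 902 bp. At equal list length the 19p12 window held 25 peaks and 0% of regions of both clones without WT, and at 19q13.4 D3 kept 86%, 9% were missing from both clones and 68.5% of regions were called in all lists. Windows narrower by 0.5 Mb on each side gave 25 peaks at 19p12. Requiring 50% covered gave 42.9% of 19q13.4 regions in all lists. With all other chromosomes as control, their empty stretches kept in the length, the density ratio was 5.53 at 19p12 and 0.846 at 19q13.4. The differences of 19q13.4 from that control were −0.72 points for peaks missing from both clones (0.132 against the rest of chromosome 19), 4.2 points for regions in all lists (−5.5), −4.44 points for both clones without WT and 85 bp for WT width (−32.5). Without the smaller clusters in the control, the share kept by D3 differed by −0.134 points (0.0882 with them). The E4 minus WT rank difference at 19p12 was 7.13 points by fold, over 3 regions. The rank differences that changed sign were E4 minus WT at 19q13.4 (−1.61 by fold, 0.505 by −log10 q) and D3 minus WT at 19p12 relative to the control (−0.643 with all other chromosomes, 0.0123 with the rest of chromosome 19).

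No paired analysis was possible because each population has a single library, numbered 1. With 1 library per population none could be left out. Unknown depth limits what a missing peak shows, and the 6 to 23 peaks per list at 19p12 give wide intervals.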

Other observations

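RefSeq promoters of the 19p12 zinc-finger genes had a median GC content of 56% over 28 promoters, and those of the 19q13.4 zinc-finger genes 61.3% over 103. The other 19q13.4 promoters had 60%, the remaining promoters of chromosome 19 had 64% and all promoters had 58.7%. The median number of CpG dinucleotides in 300 bases was 10 at 19p12, 22 in the 19q13.4 zinc-finger promoters and 13 in the other 19q13.4 promoters, against 21 on the remaining chromosome and 14 over all promoters.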
